A study of Mus musculus with 6 samples.

Results

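Muscle microRNAs were examined in a cultured mouse epicardial cell line, the cell type that forms the outer layer of the heart. They are the mature microRNAs of the miR-1, miR-133, miR-206, miR-208 and miR-499 families, taken by name from the deposited count table. The names gave 8 of the 1028 rows: mmu-miR-206-3p, mmu-miR-1a-3p, mmu-miR-1b-5p, miR-1a-2-5p, miR-1b-3p, miR-133a-3p, miR-133a-5p and miR-499-5p. No row was found for the other arms of these families, or for miR-133b, miR-133c, miR-208a and miR-208b, so no level is given for them. The lowest row of the count table held 1 count over all 6 libraries.

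Small RNAs were sequenced from 3 KO libraries, of cells transduced with a lentivirus carrying an Hdac3 guide for CRISPR/Cas9 knockout, and from 3 EV libraries, of cells transduced with an empty-vector lentivirus. Hdac3 is a histone deacetylase of nuclear repressor complexes. All 6 libraries came from the same line, grown in high-glucose medium with serum. The labels do not say whether the knockout cells were 1 clone or a pool. Nor do they say that replicates were grown apart, and the p-values below rest on the variation among these libraries alone, which may be technical. Small-RNA libraries measure neither the Hdac3 mRNA nor epicardial marker mRNAs, so neither the knockout nor the cell type was checked here.

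In the mouse, miR-1 and miR-133 are made in heart and skeletal muscle, from shared transcripts that depend on serum response factor and on Mef2 and MyoD proteins. miR-206 is known mainly from skeletal muscle and is made with miR-133b. miR-208a, miR-208b and miR-499 lie in introns of the myosin heavy chain genes Myh6, Myh7 and Myh7b. miR-1 and miR-206 are known to share a seed, the stretch at the 5′ end that pairs with target mRNAs, and both repress Hdac4 and the connexin gene Gja1.

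RefSeq (GRCm38.p6) gave a sequence for 2 of the 8 rows, miR-206-3p and miR-499-5p. They are shown 5′ to 3′ because miR-206-3p holds most of the reads described below and miR-499-5p is the only row that comes from a myosin intron. Capitals in the mature sequences mark the seed, bases 2 to 8, and in the hairpin the whole miR-206-3p.
miR-206-3p: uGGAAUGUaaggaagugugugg
Mir206 hairpin: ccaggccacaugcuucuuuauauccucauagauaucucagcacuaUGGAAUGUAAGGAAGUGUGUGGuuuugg
miR-499-5p: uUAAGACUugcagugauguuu
The seeds differ, and no other of the 849 table rows with a sequence holds either of them. The miR-1a and miR-1b rows are not among the 849, so the seed that miR-1 is known to share with miR-206 was not compared. The Mir206 hairpin lies on the plus strand at chr1:20679010-20679082, within an exon of the lincRNA gene Gm28653 (GENCODE M21, GRCm38). The neighbouring Mir133b starts 3686 bp further along and lies in an exon of the same gene. Mir499 lies on the plus strand at chr2:155622880-155622958, within an intron of Myh7b.

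The libraries held 11824881 to 13412774 counts, and 1 read stood for 0.0637 to 0.0892 CPM, that is, counts per 1000000 after each library total was scaled by edgeR's TMM factor. KO 2 and EV 3 stood apart from the rest in the red blood cell microRNA miR-451a. KO 2 held 62.7 CPM of it, against 0.243 and 0.573 CPM in the other KO libraries, and EV 3 held 54.7 CPM, against 0.892 and 2.45 CPM in the other EV libraries. Results are therefore also given without these 2 libraries. In these bulk libraries, fewer cells that make a microRNA and less of it per cell cannot be told apart.

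Muscle microRNAs were scarce in the epicardial cells, and most of their reads were miR-206-3p. The miR-1b rows repeat the miR-1a counts, as described below, and are left out of the next sums so that these reads enter once. The other 6 rows together took 0.00231%, 0.00209% and 0.002% of all counts in KO 1, KO 2 and KO 3, and 0.00322%, 0.00281% and 0.00252% in EV 1, EV 2 and EV 3. Of these reads miR-206-3p made up 89.7%, 91.0% and 88.8% in the KO libraries and 96.6%, 95.5% and 94.5% in the EV libraries. In the order of all rows by reads miR-206-3p stood at places 193, 200 and 200 in the KO libraries and at 189, 192 and 190 in the EV libraries. miR-1a-3p stood at places 357, 391 and 369 in the KO libraries, and at 445, 448 and 415 in the EV libraries. Mature microRNAs are of nearly one length, but ligation favours some over others, so the order between microRNAs is less certain than a comparison of 1 microRNA between libraries.

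KO libraries had less miR-206-3p than EV libraries and more of the miR-1a-3p/miR-1b-5p signal, in each case without overlap of the groups, but edgeR's test called none of them. These 3 rows were the only members that passed the filter on low counts, out of the 8. miR-1a-3p and miR-1b-5p hold nearly the same counts, as described below, so the 3 rows are not 3 separate results in the counts that follow. A microRNA is described as called where the Benjamini-Hochberg adjusted p of edgeR's quasi-likelihood test, taken over all 460 tested microRNAs, was under 0.05. That rule called 35 microRNAs, or 7.61% of those tested. Of the 3 tested muscle rows, 0 were called by edgeR, by DESeq2 with its default trend, which called 16.1% of its microRNAs and gave the miR-1 rows no adjusted p, or by limma-voom, which called 8.26%. At an unadjusted p under 0.05 in edgeR there were 3, where 23.0% of all tested microRNAs passed. The groups did not overlap for any of the 3, as for 29.1% of all tested microRNAs, 13.9% with lower and 15.2% with higher values in KO. The median log2 change of all tested microRNAs was -0.01.

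mmu-miR-206-3p, the skeletal muscle microRNA of the set, had 278, 242 and 230 reads in KO 1, KO 2 and KO 3, and 399, 317 and 290 reads in EV 1, EV 2 and EV 3. Scaled, these were 22.5, 19.3 and 18.8 CPM in the KO libraries and 25.4, 25.9 and 25.9 CPM in the EV libraries. Every KO library was below every EV library, and the EV libraries lay much closer together than the KO libraries. The exact Poisson 95% interval ran from 246 to 313 reads for KO 1 and from 258 to 325 reads for EV 3. The highest KO and lowest EV reads thus overlapped within counting error alone. For EV 1 it ran from 361 to 440 reads, which is wider in proportion than the range of the scaled EV values. The close agreement in EV is therefore tighter than counting error would lead to. The means were 20.2 ± 2.02 CPM in KO and 25.7 ± 0.266 CPM in EV (SD, n = 3 each). The log2 change was -0.35 (SE 0.13, 95% interval -0.65 to -0.04), and it did not pass (edgeR adjusted p = 0.169). Without EV 3 and KO 2 it was -0.30 (SE 0.17, edgeR adjusted p = 0.244).

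How closely the EV libraries agreed also depended on the scaling, because the TMM factor of EV 1 was 1.23, against 0.919 to 1.04 for the other 5 libraries. In the authors' deposited TPM, which are scaled to the library total alone, miR-206-3p was at 20.7, 19.0 and 17.8 in the KO libraries and at 31.2, 26.8 and 23.8 in the EV libraries. On that scale the means were 19.2 ± 1.47 TPM in KO and 27.2 ± 3.71 TPM in EV (SD, n = 3 each). The groups did not overlap on either scale, but the spread in EV on the TPM scale was larger. With library size alone in edgeR the log2 change was -0.51 (SE 0.18, edgeR adjusted p = 0.155), while the median of all microRNAs shifted to -0.16.

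mmu-miR-1a-3p, the heart and skeletal muscle microRNA, had 29, 22 and 25 reads in KO 1, KO 2 and KO 3, and 13, 11 and 14 reads in EV 1, EV 2 and EV 3. These were 2.35, 1.75 and 2.05 CPM in the KO libraries and 0.828, 0.898 and 1.25 CPM in the EV libraries. Every KO library was above every EV library, at levels where counting error is wide. The exact Poisson 95% interval ran from 13.8 to 33.3 reads for the lowest KO library and from 7.65 to 23.5 reads for the highest EV library, so these neighbours overlapped within counting error alone. Means were 2.05 ± 0.298 CPM in KO and 0.992 ± 0.226 CPM in EV (SD, n = 3 each). The log2 change was 1.06 (SE 0.30, 95% interval 0.39 to 1.73), a 2.09-fold difference that did not pass (edgeR adjusted p = 0.0657).

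Of the single libraries left out in edgeR, only EV 3, the EV library with the most miR-1a-3p, changed whether miR-1a-3p was called. Without EV 3 the log2 change was 1.24 (SE 0.34) and it was called (edgeR adjusted p = 0.0381), in a fit that called 12.3% of all tested microRNAs. Leaving out EV 3 and KO 2 together gave 1.35 (SE 0.43, edgeR adjusted p = 0.0250), in a fit that called 18.7%. Leaving out any other single library gave edgeR adjusted p values of 0.0956 to 0.238. Over all 6 single omissions the log2 change ran from 0.94 to 1.24, which is within about 1 SE of the value from all libraries.

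**Figure D1:**
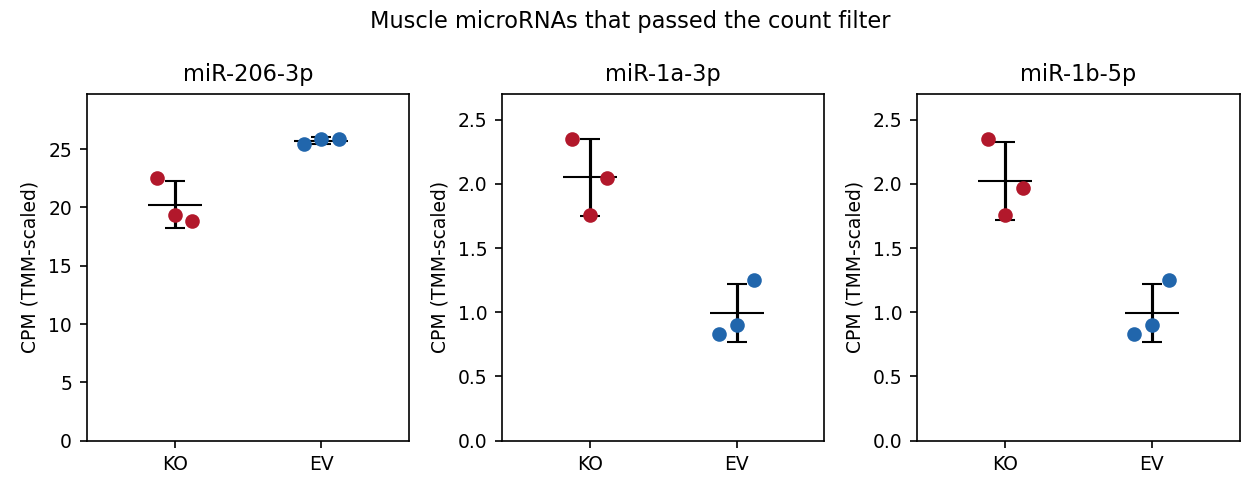
CPM (TMM-scaled) of miR-206-3p, miR-1a-3p and miR-1b-5p in the 3 KO and 3 EV libraries, with each point a library and bars showing mean ± SD. KO points for miR-206-3p lie at 18.8 to 22.5 CPM, below all EV points at 25.4 to 25.9 CPM, while KO points for miR-1a-3p lie at 1.75 to 2.35 CPM, above all EV points at 0.828 to 1.25 CPM.

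miR-1a-3p can also be set against miR-206-3p without any scaling, as a ratio of reads within each library. For every 100 miR-206-3p reads there were 10.4, 9.09 and 10.9 miR-1a-3p reads in KO 1, KO 2 and KO 3, and 3.26, 3.47 and 4.83 in EV 1, EV 2 and EV 3. The 3 KO ratios were all above the 3 EV ratios, with means of 10.1 ± 0.927 in KO and 3.85 ± 0.852 in EV (SD, n = 3 each). The KO mean was 2.63 times the EV mean. Since the reads of both microRNAs already separated the groups, in opposite directions, the ratio had to separate them too, and it is given as a description with no test.

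**Figure D2:**
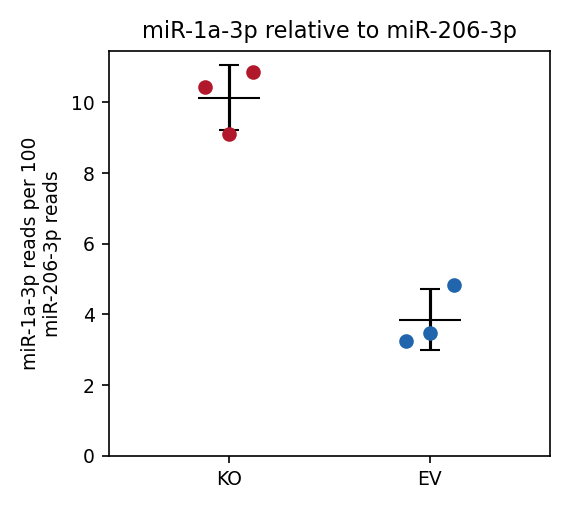
Reads of miR-1a-3p per 100 reads of miR-206-3p in each KO and EV library, with bars showing mean ± SD. The KO libraries lie at 9.09 to 10.9 and the EV libraries at 3.26 to 4.83.

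mmu-miR-1b-5p repeated the miR-1a-3p counts and is no second result. It had 29, 22 and 24 reads in KO 1, KO 2 and KO 3, and 13, 11 and 14 reads in EV 1, EV 2 and EV 3. Over all 6 libraries it differed from miR-1a-3p by 1 read, at 113 reads against 114. Its log2 change was 1.04 (SE 0.30, 95% interval 0.37 to 1.72, edgeR adjusted p = 0.0672), and without EV 3 it was 1.22 (SE 0.34, edgeR adjusted p = 0.0418). Leaving out EV 3 and KO 2 together gave 1.32 (SE 0.43, edgeR adjusted p = 0.0282).

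The other arms matched in the same way. miR-1a-2-5p and miR-1b-3p each had 1, 1 and 2 reads in the KO libraries and 0, 0 and 1 reads in the EV libraries. The hairpins Mir1b and Mir1a-2 lie on opposite strands of chromosome 18 and share 72 bp, the whole of Mir1a-2. Mir1b lies within an intron of the ubiquitin ligase gene Mib1, on its strand. Mir1a-2 lies on the strand opposite to Mib1, within an intron of Mir133a-1hg, a gene that also holds the Mir133a-1 hairpin. A further hairpin, Mir1a-1, lies outside annotated genes on the plus strand at chr2:180389048-180389124, and mature miR-1a-3p is known to come from both Mir1a hairpins. The 2 rows therefore count as 1 signal, whose strand cannot be told from the table.

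Near-equal counts also occurred for other names with reverse complementary sequences, which lie on opposite strands of a locus or are arms of 1 hairpin. Among table rows with a sequence there were 28 pairs that are reverse complementary over at least 18 bases, and 23 of them had at least 20 reads in all. In 9 of the 23 the summed difference between partners was at most 10% of their reads, as with miR-24-3p and miR-3074-5p, at 170228 and 169916 reads. In the others it was 42.3% or more, as with the endothelial miR-126a-3p and its partner miR-126b-5p, at 2575 and 3 reads. The sources used here do not say how reads on either strand were assigned, and its part in the miR-1b-5p counts was not tested.

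**Figure D3:**
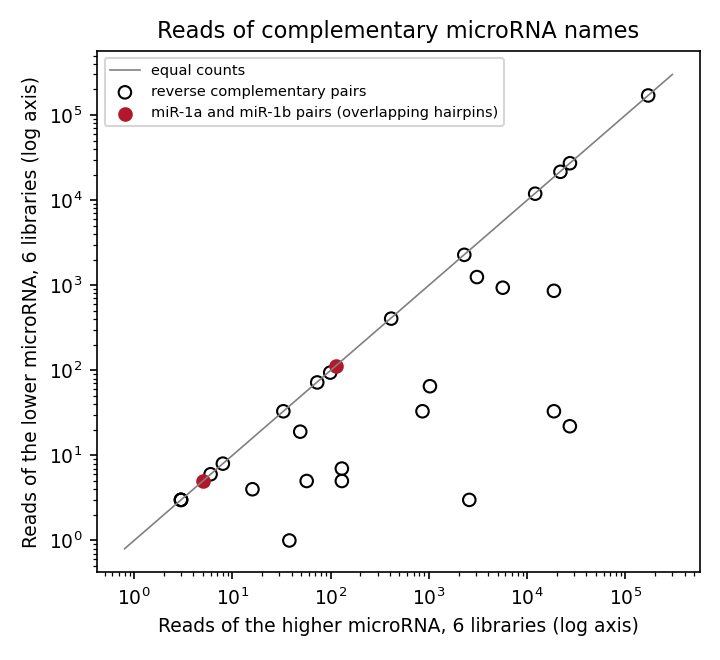
Reads over all 6 libraries of the higher and the lower member of each pair of reverse complementary microRNA names, both on log axes, with miR-1a and miR-1b pairs, whose hairpins overlap on opposite strands, in red and a line of equal counts. Both red pairs, at 114 and 113 reads and at 5 and 5 reads, lie on the line, as do 9 of the 23 other pairs with at least 20 reads to within 10%.

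miR-133a, the partner of miR-1 on shared transcripts, was at the edge of detection. miR-133a-3p had 0, 1 and 0 reads in KO 1, KO 2 and KO 3, and 0, 0 and 1 reads in EV 1, EV 2 and EV 3. Its 2 reads were thus in KO 2 and EV 3, the libraries high in miR-451a. miR-133a-5p had 0 reads in each KO library and 1 read in all in EV, again in EV 3. A count of 0 is given here a limit of 3 reads, for counting error alone, which for miR-133a-5p is 0.239 to 0.246 CPM in the KO libraries and 0.191 and 0.245 CPM in EV 1 and EV 2. Reads were counted without molecular identifiers, so PCR copies add error that these limits leave out.

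miR-499-5p, the microRNA of the Myh7b intron, had 2, 0 and 2 reads in KO 1, KO 2 and KO 3, and 1, 4 and 0 reads in EV 1, EV 2 and EV 3. The groups overlapped, with 4 reads in all KO libraries and 5 in all EV libraries. A difference was not detectable at this depth for it, for the miR-133a arms, or for miR-1a-2-5p and miR-1b-3p, and none of these passed the filter. The order of levels was therefore miR-206-3p, then the miR-1 signal at 3.26 to 10.9 reads per 100 of its reads, then the remaining rows at 0 to 4 reads, whose order cannot be resolved.

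The authors' deposited table of their own comparison lists all 3 tested muscle rows among its 78 microRNAs at an adjusted p under 0.05. For miR-206-3p the authors' deposited table gives mean normalized counts of 252 in KO and 325 in EV, a log2 change of -0.36 and an adjusted p of 0.00674. For miR-1a-3p the authors' deposited table gives means of 25.6 in KO and 12.5 in EV, a log2 change of 0.86 and an adjusted p of 0.0262. For miR-1b-5p the authors' deposited table gives 25.2 in KO and 12.5 in EV, a log2 change of 0.84 and an adjusted p of 0.0308. The log2 of the authors' own means for miR-1a-3p is 1.03, so the listed 0.86 is smaller than the ratio of the means in the authors' deposited table. The ratio of adjusted p to p at the top of the authors' deposited table points to 461 tested microRNAs, of which 78 are 16.9%.

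The direction of each muscle microRNA was thus the same in the authors' table and in edgeR, and the calls differed. DESeq2 fits chosen after the data were seen called some or all of them. With a local dispersion trend DESeq2 called miR-206-3p alone of the 3 (log2 change -0.35, SE 0.14, DESeq2 adjusted p = 0.0494) and gave the miR-1 rows no adjusted p, with 20.1% of microRNAs called. On all rows, with a mean dispersion and a prior on fold changes, DESeq2 called all 3, with 10.4% of microRNAs called. The adjusted p was then 0.0311 for miR-206-3p, 0.0395 for miR-1a-3p and 0.0439 for miR-1b-5p (DESeq2).

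**Figure D4:**
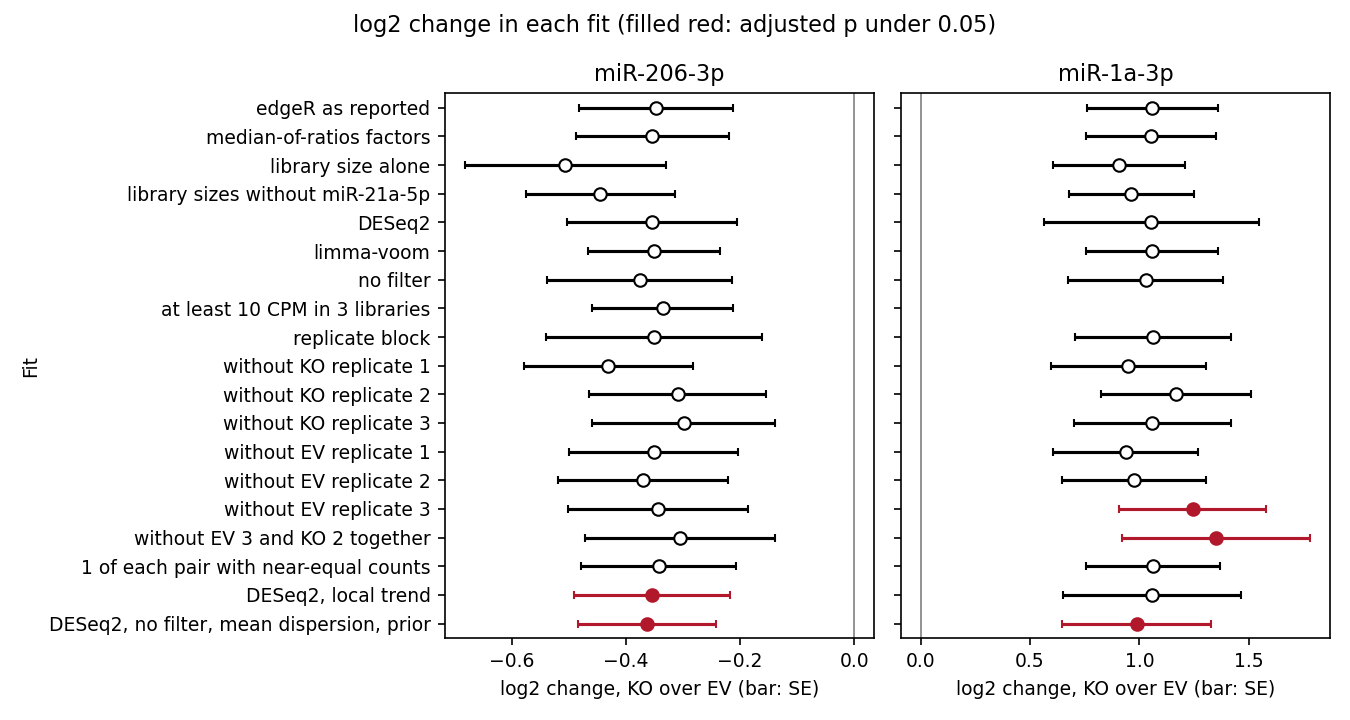
log2 change of KO over EV with its standard error for miR-206-3p and miR-1a-3p in each fit, filled red where the adjusted p was under 0.05. All values of miR-206-3p lie between -0.51 and -0.30 and all values of miR-1a-3p between 0.91 and 1.35, with 2 and 3 fits called.

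Other microRNAs followed the same pattern over the 6 libraries. The 3 most like miR-206-3p by Pearson correlation of log2 CPM were miR-138-5p (r = 0.993), miR-107-3p (r = 0.941) and miR-340-5p (r = 0.939). Of these miR-340-5p was called (log2 change -0.59, edgeR adjusted p = 0.0212). miR-138-5p was not called (edgeR adjusted p = 0.192), at 0.328 to 0.568 CPM in KO and 0.892 to 0.982 CPM in EV. Counting error is wide at such low levels. Apart from miR-1b-5p, the 3 most like miR-1a-3p were miR-34b-5p (r = 0.976), miR-320-3p (r = 0.971) and miR-216a-3p (r = 0.970). Of these miR-34b-5p, a microRNA known as a p53 target, was called (log2 change 0.92, edgeR adjusted p = 0.0136). The points share libraries, depth and the group difference. Of 459 microRNAs compared with miR-206-3p, 6 had an r over 0.9, and of 458 compared with miR-1a-3p, 20 did. The named microRNAs are thus the highest of many correlations over 6 libraries, and are given as descriptions.

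No marker of another cell type was called between KO and EV. Of 19 rows in 6 lists, which also take in miR-486 and heart microRNAs not restricted to muscle, 16 were tested. edgeR called 0 of the 16, where it called 7.61% of all tested microRNAs. At an unadjusted p under 0.05 there was 1, where 23.0% of all tested microRNAs passed. DESeq2 called 1, miR-26a-5p, where it called 16.1% of its microRNAs, and limma-voom called 0, where it called 8.26%. With such shares, so few calls among 16 rows do not set the lists apart from other microRNAs. The smooth muscle list, miR-143 and miR-145a arms, had summed levels of 76755 to 82550 CPM in KO and 71702 to 73873 CPM in EV, and 4 of 4 members were tested with a median log2 change of 0.14. Nearly all of that sum is miR-143-3p, a microRNA that fibroblast-like cells also make. The endothelial list, miR-126a arms, had summed levels of 34.7 to 35.4 CPM in KO and 36.6 to 42.1 CPM in EV, and its median log2 change was 0.00 over 2 of 2 tested. The summed levels of both lists did not overlap between the groups, but each sum is mostly 1 arm. Such separation is common here, as the groups did not overlap for 29.1% of all tested microRNAs, 13.9% lower and 15.2% higher in KO. It does not set these lists apart. miR-143-3p had a log2 change of 0.11 (SE 0.10) and miR-143-5p one of -0.12 (SE 0.16), while miR-126a-3p had -0.17 (SE 0.12) and miR-126a-5p 0.17 (SE 0.18). None of these was called by edgeR, and their part in the muscle values was not tested.

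The neural list of miR-9 and miR-124 summed to 15.4 to 58.6 CPM in KO and 11.4 to 53.1 CPM in EV, highest in KO 2 and EV 3. The red blood cell list summed to 0.243 to 62.7 CPM in KO and 0.892 to 54.7 CPM in EV, with miR-144-3p at 0 reads in each KO library and at 1 read in all in EV. The groups overlapped in both lists, and the muscle values without KO 2 and EV 3 are given above. The log2 change was 0.14 (SE 1.64) for miR-451a and -0.05 (SE 0.57) for miR-9-5p, so a difference in either could not be resolved.

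miR-486, a microRNA of muscle and of red blood cells that the member names do not include, spread widely within both groups. miR-486a-5p reached 5.68, 15.1 and 9.25 CPM in the 3 KO libraries, in order, and 7.83, 6.53 and 13.3 CPM in the 3 EV libraries. The highest values were in KO 2 and EV 3, and the groups overlapped. Its log2 change was 0.12 (SE 0.35, edgeR adjusted p = 0.868). miR-486a-5p and miR-486b-3p differed by under 1% of their reads, so these 2 rows are 1 signal. The remaining row, miR-486a-3p, was close to both in every library. It was at 5.51, 15.2 and 9.50 CPM in the KO libraries and 8.41, 6.94 and 13.6 CPM in the EV libraries. It is therefore not read as a separate result.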

How the data were processed

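Small-RNA libraries were made from Trizol-extracted RNA with a NEBNext kit and gel size selection, per the labels' protocols. The submitters' processing notes name Bowtie, DESeq 1.8.3 and the mm10 genome build, while DESeq2 is named in the design text of the series. The authors deposited whole-number read counts per mature microRNA and TPM, which sum to 1000000 per library and hold no length term. The authors' deposited comparison table holds, per microRNA, mean normalized counts for KO and EV (a signal without spread), the log2 fold change and its p-value, raw and adjusted, with no record of filtering.

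Counts were tested with edgeR 4.0.16 in R 4.3.3 (TMM factors, filterByExpr with minimum count 10 and minimum total 15, two-sided quasi-likelihood F test, group as the only term). Benjamini-Hochberg adjustment ran over all 460 tested microRNAs. The code was tested on simulated data. Alternatives used DESeq2 1.42.0, limma 3.58.1 (voom), other scalings and filters, a replicate block and omitted libraries. Members with too few counts are given as reads, with exact Poisson intervals at 95% or a floor of 3 reads. All rows the member names take are named, along with fixed marker lists, the 3 microRNAs most correlated with miR-206-3p and with miR-1a-3p, and reverse complementary pairs, of which examples were chosen after their values were seen. The members and lists were chosen with earlier results of these data known. Replicate numbers come from the sample titles. Every pair of libraries within a group differed by more than counting noise (smallest chi-square 9040 on 459 degrees of freedom, KO 1 with KO 3).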

Additional observations from a re-analysis of the deposited data

How the results depend on the processing

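The 3 tested muscle microRNAs kept their direction in every alternative that gave them a value, 18 for miR-206-3p, 17 for miR-1a-3p and 16 for miR-1b-5p. The log2 change ran from -0.51 to -0.30 for miR-206-3p, from 0.91 to 1.35 for miR-1a-3p and from 0.89 to 1.32 for miR-1b-5p. edgeR called 0 of the 3, where it called 7.61% of all tested microRNAs. With 1 library left out it called 0 to 2, where it called 3.16% to 12.3% of all. The omissions gave -0.43 to -0.30 for miR-206-3p, 0.94 to 1.24 for miR-1a-3p and 0.92 to 1.22 for miR-1b-5p. Both miR-1 rows, which are 1 signal, were called without EV 3, where 12.3% of all were called. Without EV 3 and KO 2 together 2 were called, miR-1a-3p at 1.35 and miR-1b-5p at 1.32, with 18.7% of all called. DESeq2 with a local trend called 1, miR-206-3p at -0.35, with 20.1% of its microRNAs called. DESeq2 on all rows with a mean dispersion and a prior called 3, with 10.4% of its microRNAs called. These were miR-206-3p at -0.36, miR-1a-3p at 0.99 and miR-1b-5p at 0.97. Both DESeq2 fits were added after the data were seen. The cause of these changes in calls was not tested.

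Adjusted p ranged over the alternatives from 0.0311 to 0.343 for miR-206-3p, from 0.0250 to 0.238 for miR-1a-3p and from 0.0282 to 0.238 for miR-1b-5p, leaving out the DESeq2 fits that gave the miR-1 rows none. The filter of 10 CPM in 3 libraries removed both miR-1 rows. Deviations from the group means correlated at 0.30, -0.04 and -0.22 between same-numbered libraries, and at 0.43 between KO 2 and EV 3. With 3 libraries a group, these values cannot show whether same-numbered libraries were handled together. With the replicate block 0 muscle microRNAs were called, at -0.35 for miR-206-3p, 1.06 for miR-1a-3p and 1.04 for miR-1b-5p, and 34 of all microRNAs were called in place of 35. Depth limits the miR-1 rows to 11 to 29 reads a library.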

Other observations

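miR-22-3p, miR-378a-3p, miR-30a-5p and miR-26a-5p, which are abundant in the heart without being restricted to muscle, were far higher than the muscle microRNAs. The remaining list member, miR-378a-5p, averaged 17.0 CPM in KO and 17.7 CPM in EV, below miR-206-3p at 20.2 and 25.7 CPM. None of the 5 on the list was called by edgeR, which called 7.61% of all tested microRNAs. miR-22-3p averaged 4440 ± 199 CPM in KO and 4574 ± 168 CPM in EV (SD, n = 3 each), and the 2 groups differed by -0.04 on the log2 scale (SE 0.07, edgeR adjusted p = 0.765). miR-378a-3p, from an intron of Ppargc1b, averaged 2510 ± 174 CPM in KO and 2573 ± 158 CPM in EV (SD, n = 3 each), and its log2 change was -0.04 (SE 0.08, edgeR adjusted p = 0.817). miR-26a-5p averaged 7195 ± 388 CPM in KO and 6087 ± 488 CPM in EV (SD, n = 3 each). Its log2 change of 0.24 (SE 0.09, edgeR adjusted p = 0.132) was the only one of the 5 with an unadjusted p under 0.05. Of all tested microRNAs 23.0% had such a p in edgeR. DESeq2, which called 16.1% of its microRNAs, called miR-26a-5p alone of these 5 (DESeq2 adjusted p = 0.0489). limma-voom, which called 8.26%, called 0 of them.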
